A study of Mus musculus with 20 samples.

Results

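The axon guidance ligands and receptors were examined in 4 microvascular compartments of the mouse kidney cortex and in whole kidney. Members were chosen by symbol alone, as the semaphorins of classes 3 to 7, the plexins, the netrins and netrin-Gs, the Unc5, Slit and Robo genes, the Eph receptors and the ephrins, and 67 of the 34255 genes in the count table had such a symbol. They comprised 20 semaphorins, 9 plexins, 5 netrins and netrin-Gs, 4 Unc5 receptors, 3 Slits, 4 Robo receptors, 14 Eph receptors and 8 ephrins. Peritubular capillaries, glomeruli, arterioles and post-capillary venules had been cut by laser microdissection from cryosections of snap-frozen kidneys of healthy, untreated WT male mice of the strain C57BL6/OlaHsd, and whole kidney of the same strain, sex and genotype served as reference. Per the study's methods the mice were 8 to 12 weeks old, and each mouse gave 1 slide for arterioles, glomeruli and venules and another for peritubular capillaries. Each of the 5 groups held 4 libraries, which the labels call biological replicates, and the libraries are given throughout in the order 93, 96, 98 and 100, the numbers in the column names. Sections were stained with hematoxylin for arterioles, glomeruli and venules and with isolectin B4 for peritubular capillaries, and each dissected structure carried the cells around its endothelium with it. Reads had been made from 3′ ends of polyadenylated mRNA, with a low-input modification and more PCR cycles for microdissected than for whole kidney RNA, so that preparation and tissue cannot be told apart in any comparison with whole kidney.

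Guidance cues were first known as signals that attract or repel growing axons, and the same families act on blood vessels. Semaphorins signal through plexins, and most secreted class 3 semaphorins bind a neuropilin co-receptor as well. Netrins bind Unc5 receptors, neogenin and DCC, Slits bind Robo receptors, and ephrins, which are anchored in the membrane, signal in both directions with Eph receptors on a neighbouring cell. In vessels, Efnb2 and Ephb4 are classical labels of arterial and venous endothelium, Unc5b marks arterial and tip endothelial cells, Sema3e acts through Plxnd1, and Robo4 is an endothelial Robo receptor. In the kidney, podocytes, the epithelial cells that wrap the glomerular capillaries, also use several of these genes, among them Robo2 and Efnb1, whose products sit at or near the slit diaphragm.

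The sequence in front of the gene is shown for 4 members, because these were the genes called higher than whole kidney in glomeruli (Sema3g, Efnb1, Sema5a) and a receptor called in both arterioles and venules (Unc5b). Each run is the 250 bases before the RefSeq transcription start on GRCm38.p6, printed in the direction of transcription, with matches to 2 short motifs in capitals: TGGGAA, the core of the site bound by the Notch effector RBPJ, and GGGCGG, the GC box bound by SP and KLF factors (CCGCCC when read on the other strand). Sema3g lies on chromosome 14 (plus strand, 31217860 to 31230352 in GENCODE M21), Efnb1 on chromosome X (plus strand, 99136130 to 99148991), Sema5a on chromosome 15 (plus strand, 32244810 to 32696341) and Unc5b on chromosome 10 (minus strand, 60762593 to 60831581).
Sema3g, chr14:31217623-31217872, plus strand: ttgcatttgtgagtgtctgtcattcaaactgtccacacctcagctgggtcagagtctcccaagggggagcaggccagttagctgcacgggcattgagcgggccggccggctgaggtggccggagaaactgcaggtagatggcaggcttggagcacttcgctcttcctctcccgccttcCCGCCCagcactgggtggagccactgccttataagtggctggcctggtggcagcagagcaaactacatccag
Efnb1, chrX:99135811-99136060, plus strand: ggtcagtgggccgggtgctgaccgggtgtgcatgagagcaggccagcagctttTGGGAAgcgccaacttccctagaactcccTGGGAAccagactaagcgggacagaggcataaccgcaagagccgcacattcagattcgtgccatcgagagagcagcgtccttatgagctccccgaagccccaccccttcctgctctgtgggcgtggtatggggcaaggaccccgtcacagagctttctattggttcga
Sema5a, chr15:32244563-32244812, plus strand: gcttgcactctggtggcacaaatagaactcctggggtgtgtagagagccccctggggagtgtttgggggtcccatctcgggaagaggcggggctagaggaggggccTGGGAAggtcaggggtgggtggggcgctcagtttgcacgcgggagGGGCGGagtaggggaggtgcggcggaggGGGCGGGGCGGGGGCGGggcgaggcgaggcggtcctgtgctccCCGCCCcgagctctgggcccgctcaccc
Unc5b, chr10:60831582-60831831, minus strand: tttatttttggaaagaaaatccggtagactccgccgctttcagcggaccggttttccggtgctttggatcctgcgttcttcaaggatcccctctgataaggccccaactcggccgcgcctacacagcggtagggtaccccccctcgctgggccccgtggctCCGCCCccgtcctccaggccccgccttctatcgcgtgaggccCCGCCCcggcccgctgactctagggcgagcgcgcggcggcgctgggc
TGGGAA began 197 and 168 bases before the start of Efnb1 and 144 bases before that of Sema5a. GC boxes began 72 bases before the start of Sema3g, 89 and 47 bases before that of Unc5b, and 99, 71, 66, 60 and 28 bases before that of Sema5a, where the boxes at 71 and 66 share a base. Across all 32851 RefSeq mouse promoter windows, on both strands, GGGCGG was found in 32.7% and TGGGAA in 21.6%, while the 74 windows of the 58 members in that table held them in 70.3% and 16.2%. The median GC content was 64.2% in the members' windows and 52.4% in all windows. GTAAACA, a FOX site, was found in 3.17% of all windows and in 0 of the 74 member windows, and CATTGT, a SOX site, in 10.7% and 9.46%. These letter matches describe the windows only.

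The libraries held 4639090 to 12283098 counts. Replicates of the same tissue were far more alike in whole kidney than in the dissected compartments. The SD of log2(CPM + 1) over the 4 libraries of a group, where CPM is counts per 1000000 counts of a library after TMM scaling, had a median over the 52 members tested against whole kidney of 2.18 in arterioles, 1.00 in glomeruli, 1.75 in peritubular capillaries, 1.64 in venules and 0.240 in whole kidney, against 1.87, 1.07, 1.49, 1.36 and 0.242 for all 13813 genes tested. Of 208 member values in each group, 44 in arterioles, 19 in glomeruli, 34 in peritubular capillaries, 39 in venules and 0 in whole kidney were 0 counts. More than 10 counts were found for 46.2%, 78.4%, 54.8%, 53.8% and 90.4% of the member values in the same order, and for 50.6%, 75.4%, 60.3%, 66.6% and 94.9% of the values of all genes tested. Only 6 members had more than 10 counts in every arteriolar library, compared with 31 in glomeruli, 12 in peritubular capillaries, 10 in venules and 42 in whole kidney. A member was therefore often present in some libraries of a compartment and absent from others, and the glomeruli were the compartment in which these genes were measured most evenly. Per the study's methods, a larger area was cut for glomeruli and venules than for arterioles and peritubular capillaries. A fixed volume of RNA entered each microdissected library, so amount of tissue and compartment cannot be told apart in these counts.

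**Figure D1:**
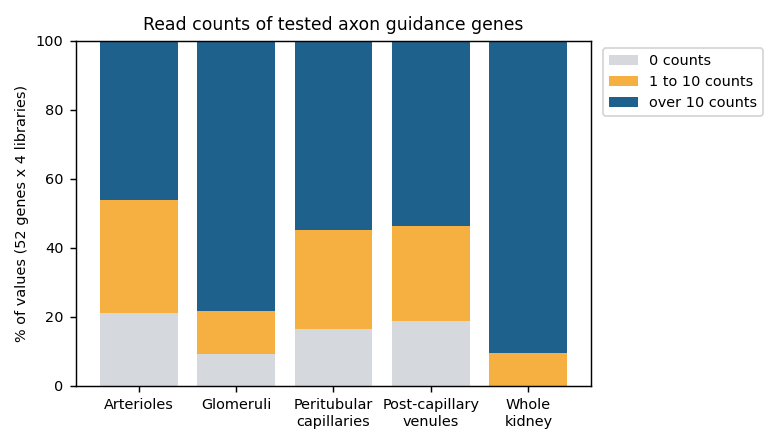
Share of values with 0, with 1 to 10 and with over 10 counts, as a percentage of 208 values (52 tested members in 4 libraries) in each group; bars are stacked and start at 0. Whole kidney has no value at 0, and over 10 counts are reached by 78.4% of glomerular but 46.2% of arteriolar values.

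**Figure D2:**
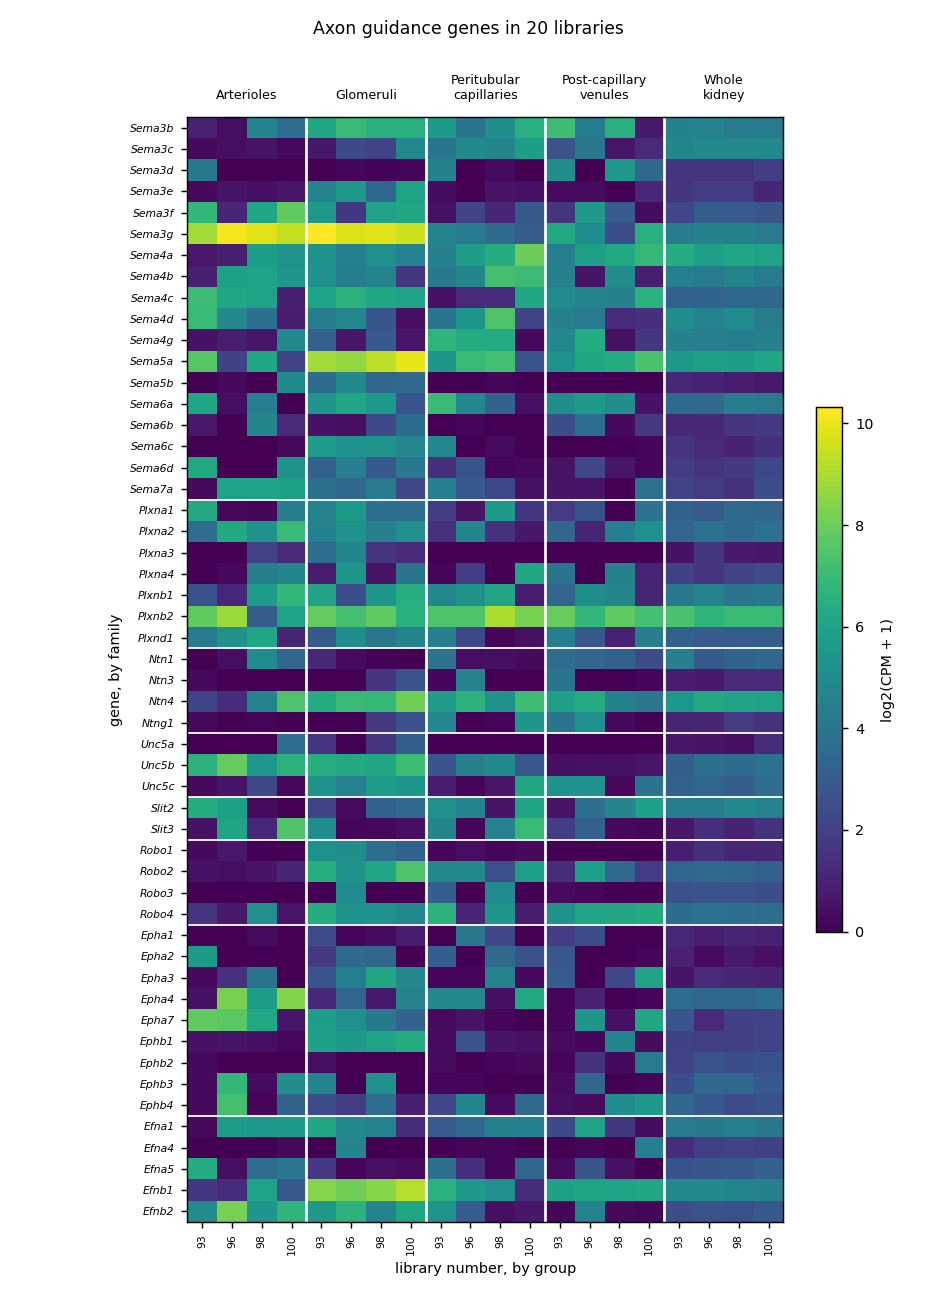
Level of each of the 52 tested members, as log2(CPM + 1), in the 20 libraries, with genes ordered by family and libraries by group. Bright bands across all 4 libraries of a compartment are few, Sema3g in arterioles and glomeruli among them, and single bright cells in otherwise dark groups are common.

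The tissue in each compartment was checked with fixed marker lists. Summed levels of 19 pan-endothelial markers, Robo4 left out as a member, were 5621 to 9410 CPM in arterioles, 7322 to 8899 CPM in glomeruli, 783.8 to 2080 CPM in peritubular capillaries, 1586 to 1959 CPM in venules and 656 to 759 CPM in whole kidney. Of the 18 of these markers tested against whole kidney, edgeR called 12 higher and 1 lower in arterioles, 10 higher in glomeruli and 2 higher in venules. In peritubular capillaries 0 were called by edgeR or DESeq2, with 3 at an unadjusted p under 0.05 in edgeR's test, so the higher sum there came without a call. The 15 arterial endothelial markers summed to 11133 to 21410 CPM in arterioles. They summed to 2556 to 3898 CPM in venules and 649 to 788 CPM in whole kidney. The 11 venous and lymphatic markers summed to 608 to 1656 CPM in arterioles and 436.5 to 713.5 CPM in venules. Of the 10 tested, edgeR called 0 in venules, with 3 at an unadjusted p under 0.05 in its test, and DESeq2 called 1. In arterioles edgeR called 2 of them higher. Other cells came with the endothelium. All 15 smooth muscle markers together reached 24256 to 59221 CPM in arterioles against 540 to 705 CPM in whole kidney, with Casq2 at 0. The 16 podocyte markers together reached 9128 to 10235 CPM in glomeruli, where 15 of 16 exceeded 10 CPM in every library, against 261 to 296 CPM in whole kidney. Podxl was in both this list and the pan-endothelial list and so entered both sums. Mesangial and pericyte markers (12 genes) summed to 5238 to 10620 CPM in arterioles, 1683 to 3061 CPM in glomeruli and 192 to 226 CPM in whole kidney. Proximal tubule markers (18 genes) summed to 76576 to 140712 CPM in peritubular capillaries and 44016 to 46755 CPM in whole kidney. In venules these markers summed to 30231 to 37588 CPM. Because guidance genes also mark nerves, 12 Schwann cell and nerve genes were examined. They summed to 83.8 to 488 CPM in arterioles and 35.8 to 56.5 CPM in whole kidney, with Cdh19, Nefl and Nefm among the genes at 0 in every arteriolar library. Of the 5 that could be tested, 1 was higher in arterioles, Stmn2, a neuronal tubulin-binding gene, by 7.39 ± 1.57 on the log2 scale (FDR 0.00149). The part of these cells in the values of the guidance genes was not tested, and fewer cells of a type cannot be told apart from less RNA per cell.

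Members called against whole kidney had to pass an FDR of 0.05 over all 13813 genes in edgeR's quasi-likelihood test and a log2 fold change beyond 1. In arterioles, 4 of 52 members (7.69%) were higher (Sema3g, Unc5b, Epha7 and Efnb2), where 5.78% of all genes were, and 2 (3.85%) were lower (Sema3c and Robo2), where 5.5% were. In glomeruli, 3 members (5.77%) were higher (Sema3g, Efnb1 and Sema5a) against 1.59% of all genes, and 0 were lower against 1.47%. No member was called in peritubular capillaries, where 0.0869% of all genes were higher and 0.00724% were lower. In venules 0 members were higher, against 0.203% of all genes, and 1 (Unc5b, 1.92%) was lower, against 0.0217%. At an unadjusted p under 0.05, counting both directions, 16 members (30.8%) passed in glomeruli, where 15% of all genes did. In arterioles 15 members (28.8%) passed, against 33.1% of all genes, in venules 10 (19.2%), against 9.36%, and in peritubular capillaries 7 (13.5%), against 12.4%. DESeq2 called 1 member (Ntn1) lower in glomeruli, where 3.2% of all genes were lower. In peritubular capillaries it called 1 member (Slit3) higher and 2 (Ephb3 and Unc5a) lower, against 0.253% and 1.8% of all genes, and in venules 0 higher, against 0.478%. The median log2 fold change of the 52 members was 1.44 in glomeruli, 0.82 in arterioles, 0.62 in peritubular capillaries and 0.45 in venules, against 0.26, 0.22, 0.18 and 0.19 over all genes. The 4 comparisons share the whole kidney libraries. A fit of the 8 glomerular and whole kidney libraries alone called 19 of 49 members (38.8%) higher and 4 (8.16%) lower in glomeruli, and 11.6% and 10.1% of all genes.

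A second view, with no test, counted members whose 4 libraries did not overlap those of whole kidney. In glomeruli 21 of 52 members (40.4%) lay wholly above whole kidney, compared with 14.6% of all genes, and 7 (13.5%) wholly below, compared with 18%. In arterioles 3 members (Sema3g, Unc5b and Efnb2, 5.77%) lay above, against 8.45%, and 14 (26.9%) below, against 28%. In peritubular capillaries 1 member (Plxnb2, 1.92%) lay above, against 6.08%, and 10 (19.2%) below, against 18.3%. In venules 3 members (Efnb1, Robo4 and Sema4c, 5.77%) lay above, against 5.81%, and 9 (17.3%) below, against 14.4%.

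**Figure D3:**
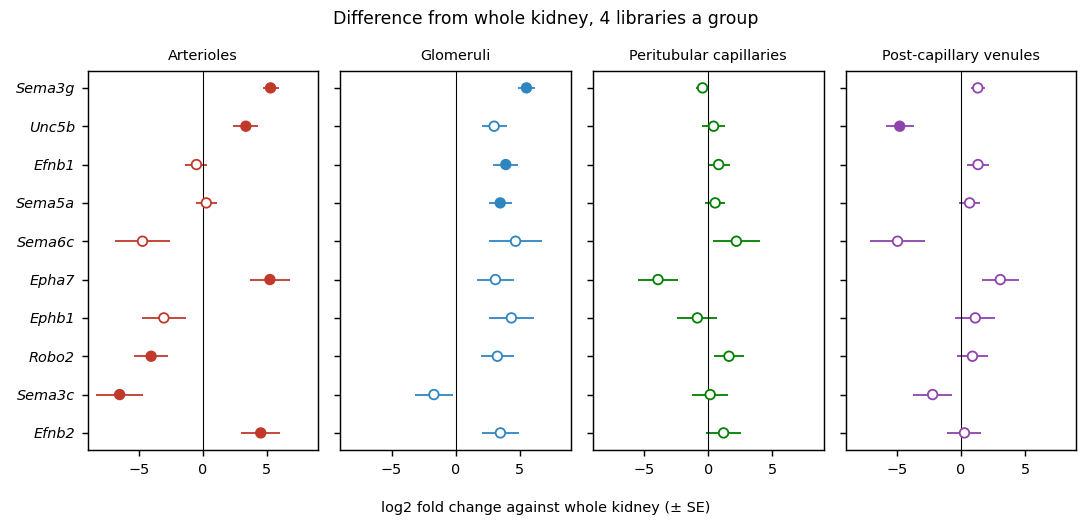
Log2 fold change against whole kidney (horizontal axis) with its SE for the 10 members called against whole kidney or as markers, in 1 panel for each compartment, 4 libraries a group, with filled points for calls against whole kidney. Sema3g sits at 5.27 in arterioles and 5.52 in glomeruli and at -0.45 in peritubular capillaries, and the error bars of the other genes are wider.

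Sema3g, a secreted class 3 semaphorin, had the lowest FDR of the members tested in both arterioles and glomeruli. Which cells of these dissected structures held it was not tested. Its level was 470.5, 1121, 924 and 665 CPM in arterioles and 1274, 863, 917 and 736 CPM in glomeruli. It was 24.4, 17.7, 10.8 and 7.24 CPM in peritubular capillaries, 75.9, 31.7, 4.63 and 91.2 CPM in venules and 19.6, 21.9, 21.9 and 18.8 CPM in whole kidney. Every arteriolar and glomerular library exceeded every library of the other groups by a wide margin, and the arteriolar and glomerular ranges overlapped. Compared with whole kidney, the log2 fold change was 5.27 ± 0.62 (SE, n = 4 per group, FDR 1.24e-07 in edgeR's test) in arterioles and 5.52 ± 0.63 (FDR 1.64e-07) in glomeruli. The difference was -0.45 ± 0.52 (FDR 0.853) in peritubular capillaries and 1.31 ± 0.53 (FDR 0.368) in venules. Among the compartments, Sema3g was higher in arterioles than in peritubular capillaries by 5.72 ± 0.68 on the log2 scale (FDR 1.17e-07) and than in venules by 3.96 ± 0.62 (FDR 5.7e-05). The arteriole to glomerulus difference was -0.25 ± 0.55 (FDR 0.871). Both calls against whole kidney held when any 1 of the 20 libraries was left out.

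**Figure D4:**
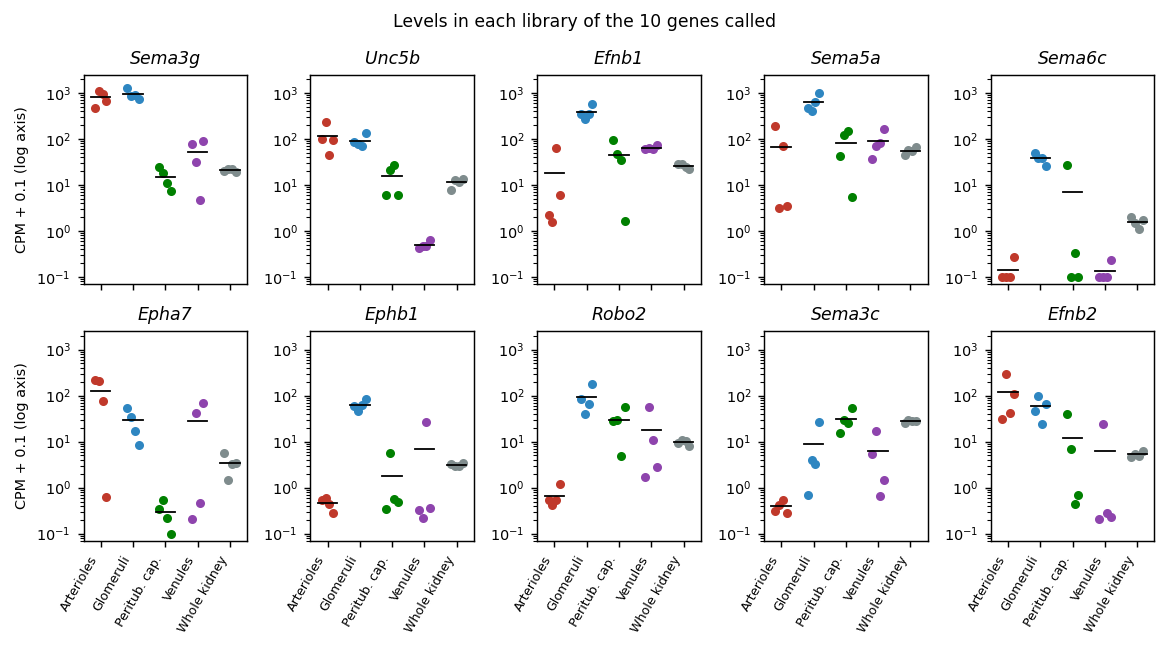
CPM + 0.1 (log axis) in each library of the same 10 members, by group; points are libraries and bars are group means. Arteriolar and glomerular Sema3g lie above all other groups, and venular Unc5b lies between 0.336 and 0.536 CPM, below all other groups.

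Sema5a, a transmembrane semaphorin with thrombospondin repeats, was highest in glomeruli in every library. Its level there was 467, 404, 622 and 989.5 CPM, against 45.0, 58.4, 54.2 and 65.1 CPM in whole kidney. Arteriolar libraries held 191, 3.06, 69.0 and 3.39 CPM, peritubular capillaries 42.6, 123, 151 and 5.48 CPM and venules 37.0, 71.7, 81.5 and 165 CPM. The lowest glomerular value was above the highest of any other group, while the other 4 groups overlapped. The log2 fold change against whole kidney was 3.48 ± 0.89 (FDR 0.0191) in glomeruli and 0.26 ± 0.81 (FDR 0.849) in arterioles. That glomerular call was lost without library 100 of the glomeruli or without any 1 whole kidney library (highest FDR 0.0805, log2 fold change 3.16 to 3.57 over all 20 fits). Against the mean of the other 3 compartments, taken on the log2 scale here and below, the difference was 2.99 ± 0.62 (FDR 0.00241). This call held in all 16 fits that left out a microdissected library.

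Sema6c and Sema3e showed glomerular levels beside near absence elsewhere. Sema6c, a transmembrane class 6 semaphorin, had 495, 345, 503 and 237 counts in glomeruli (49.6, 38.1, 39.2 and 26.1 CPM). Arterioles had 0, 0, 0 and 1 counts, venules 0, 0, 0 and 1, and peritubular capillaries 217, 0, 2 and 0. One peritubular library thus reached 27.0 CPM while the other 3 of that group stayed at or below 0.233 CPM. Whole kidney held 1.92, 1.38, 1.03 and 1.61 CPM, and the log2 fold change of glomeruli against it was 4.67 ± 2.04 (FDR 0.238). Against the other compartments Sema6c was higher in glomeruli by 7.14 ± 1.60 (FDR 0.00489), a call held in all 16 fits with a microdissected library left out. Sema3e, the secreted ligand of Plxnd1, was at 23.8, 44.5, 9.97 and 62.3 CPM in glomeruli and at 2.13, 2.53, 2.60 and 1.13 CPM in whole kidney. Its highest value in the other 12 microdissected libraries was 1.21 CPM, in a venular library. The log2 difference of glomeruli from the other compartments was 6.56 ± 1.46 (FDR 0.00459), and that from whole kidney was 4.06 ± 1.79 (FDR 0.249). Sema3e was no marker under the rule used here, which also asked for 10 CPM in each of the 4 libraries. Both genes passed the low-count filter of the compartment fit only through glomerular libraries, where they were high, so these FDRs follow that selection. For Sema6c the FDR ranged from 0.000695 to 0.00633 over 7 alternatives, no filter among them.

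Sema3c, a secreted semaphorin that binds neuropilins, went the other way in arterioles. Arteriolar libraries held 1, 2, 4 and 1 counts, or 0.213, 0.322, 0.450 and 0.178 CPM. Whole kidney held 25.8, 29.5, 28.4 and 28.2 CPM and peritubular capillaries 15.3, 29.8, 25.4 and 53.4 CPM. Glomeruli were at 0.601, 3.98, 3.19 and 26.8 CPM and venules at 5.26, 16.9, 0.556 and 1.34 CPM, so the arteriolar libraries lay below every other library. Sema3c fell by 6.50 ± 1.83 on the log2 scale in arterioles against whole kidney (FDR 0.0188). That call held in all 20 fits that left out a library and was lost when no gene was filtered out for low counts (FDR 0.0542, range over 7 alternatives 1.41e-06 to 0.0542). The direct difference from peritubular capillaries was -6.64 ± 2.28 (FDR 0.0517).

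Among the semaphorins not yet described, Sema3f was higher in arterioles than in peritubular capillaries by 5.13 ± 1.69 (FDR 0.0432), with means of 99.8 ± 91.8 CPM (SD) and 2.86 ± 2.80 CPM. That call was lost in 9 of 16 fits with a library left out (arteriolar 93 or 100, glomerular 93, 98 or 100, or any peritubular library, highest FDR 0.102), with the block (FDR 0.0504) and with only the libraries compared (FDR 0.0934, range over 7 alternatives 0.000453 to 0.0934). Sema5b differed among the compartments (FDR 0.0303), with 11.5, 29.6, 10.2 and 10.4 CPM in glomeruli, a single arteriolar library at 29.4 CPM and 0 in all 4 venular libraries. It passed the low-count filter of that fit only through glomerular libraries, where it was high, so its FDR follows that selection. Summed over its 20 members, the semaphorin family reached 1140 to 1384 CPM in arterioles, 1775 to 2170 CPM in glomeruli, 429 to 734 CPM in peritubular capillaries, 408 to 501 CPM in venules and 292 to 314 CPM in whole kidney.

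Of the plexins, the receptors of semaphorins, 7 could be tested, and edgeR called 0 against whole kidney in any compartment, with 0, 0, 1 and 1 at an unadjusted p under 0.05 in arterioles, glomeruli, peritubular capillaries and venules and 1 DESeq2 call, in arterioles. Plxnb2, a broadly expressed class B plexin, was at 223, 432, 7.19 and 61.8 CPM in arterioles, 225, 150.2, 216 and 91.4 CPM in glomeruli, 175, 176, 528 and 295 CPM in peritubular capillaries, 239.8, 113, 216 and 150.4 CPM in venules and 160.4, 106, 124 and 122 CPM in whole kidney. Its peritubular libraries all lay above whole kidney, with a log2 fold change of 1.20 ± 0.66 (FDR 0.482), and the other compartments overlapped whole kidney. Plxnd1, the endothelial receptor of Sema3e, was at 18.6, 37.7, 66.8 and 1.07 CPM in arterioles, 6.51, 32.3, 15.7 and 23.3 CPM in glomeruli and 8.30, 6.80, 7.06 and 7.18 CPM in whole kidney. Peritubular capillaries held 20.4, 3.54, 0.117 and 0.391 CPM and venules 21.1, 6.08, 0.926 and 19.3 CPM. Every compartment overlapped whole kidney in Plxnd1, with log2 fold changes between -0.26 ± 1.51 and 2.08 ± 1.57. Plxna3, a class A plexin, differed among the compartments (FDR 0.0201) with 11.8, 24.7, 1.95 and 1.32 CPM in glomeruli and 0 counts in all 8 peritubular and venular libraries. It passed the low-count filter of that fit only through glomerular libraries, where it was high, so its FDR follows that selection.

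Neuropilins and the intracellular partners of plexins were read from a list of 17 genes, 14 of which could be tested. Nrp1, the neuropilin bound by Sema3a and VEGF, was at 1326, 1473, 1355 and 1389 CPM in glomeruli and 143, 158, 172 and 175 CPM in whole kidney. It was higher in glomeruli by 3.10 ± 0.51 on the log2 scale (FDR 0.000154), and the 4 glomerular libraries differed little among themselves. Nrp2, the neuropilin preferred by Sema3f and Sema3g, was at 89.3, 139, 132 and 145 CPM in arterioles and 22.3, 24.8, 31.5 and 33.5 CPM in whole kidney. These ranges did not overlap, but the log2 fold change of 2.17 ± 0.79 missed the threshold (FDR 0.063). Of the other members of the list, Dpysl3, Rras and Mical2, which act on the cytoskeleton and on integrins behind the receptor, were higher in arterioles, Dpysl3 by 4.70 ± 0.97 (FDR 0.00107). Arhgef12, an exchange factor that class B plexins bind, was higher in glomeruli by 1.92 ± 0.47 (FDR 0.014). The list thus gave 3 higher and 0 lower in arterioles, 2 higher and 0 lower in glomeruli, and 0 in peritubular capillaries and venules, where 2 and 3 had an unadjusted p under 0.05 and DESeq2 called 0.

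Of the 4 netrins and netrin-Gs tested, edgeR called 0 against whole kidney in any compartment, with 1 at an unadjusted p under 0.05, in glomeruli, where DESeq2 called Ntn1 lower. Ntn4, a basement membrane netrin, was at 83.7, 123, 116 and 262 CPM in glomeruli and 44.5, 78.1, 63.9 and 62.9 CPM in whole kidney, a log2 fold change of 1.23 ± 0.94 (FDR 0.675). Arterioles held 3.41, 1.45, 23.2 and 173 CPM, peritubular capillaries 49.7, 96.6, 37.5 and 138 CPM and venules 57.5, 81.3, 21.9 and 16.1 CPM. The glomerular libraries lay above whole kidney, and in the other compartments the ranges overlapped. Ntn1, the founding secreted netrin, was at 22.1, 6.57, 8.91 and 9.92 CPM in whole kidney and at 1.30, 0.221, 0.0779 and 0 CPM in glomeruli. Arterioles held 0, 0.322, 30.5 and 9.46 CPM, peritubular capillaries 14.0, 0.295, 0.350 and 0.196 CPM and venules 12, 9.48, 8.34 and 4.29 CPM. The glomerular libraries all lay below whole kidney, with a log2 fold change of -4.84 ± 2.14 that missed the threshold (FDR 0.248).

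Unc5b, a netrin receptor of arterial endothelium, was lowest in the venules. Venular libraries held 3, 3, 2 and 4 counts, or 0.336, 0.365, 0.370 and 0.536 CPM. Arterioles were at 98.3, 229, 44.3 and 94.2 CPM, glomeruli at 86.2, 77.5, 71.3 and 132 CPM, peritubular capillaries at 5.84, 21.2, 27.6 and 6.06 CPM and whole kidney at 7.80, 13.0, 11.5 and 13.4 CPM. All venular libraries lay below all others, and all arteriolar and glomerular libraries lay above those of peritubular capillaries and whole kidney. Unc5b was higher in arterioles than in venules by 8.12 ± 1.40 (FDR 0.000248), in glomeruli by 7.78 ± 1.38 (FDR 0.000792) and in peritubular capillaries by 5.18 ± 1.23 (FDR 0.0434). The calls against arterioles and glomeruli held under all alternatives run that tested the gene. The peritubular call was lost under 5 of 7 alternatives, with RLE scaling (FDR 0.0537), no filter (FDR 0.062), the newer test form (FDR 0.327), the library number as a block (FDR 0.0932) and only the libraries compared (FDR 0.395), with a range of 4.41e-07 to 0.395, and in 10 of 16 fits, those without any 1 glomerular or venular library or peritubular library 96 or 98 (highest FDR 0.166). Against whole kidney the log2 fold change was 3.35 ± 0.99 in arterioles (FDR 0.0246), 3.00 ± 0.97 in glomeruli (FDR 0.0782), 0.41 ± 0.90 in peritubular capillaries (FDR 0.945) and -4.78 ± 1.08 in venules (FDR 0.0347). The arteriolar call was lost without library 96 of the arterioles or any 1 whole kidney library (highest FDR 0.0836), and with no filter (FDR 0.084, range over 7 alternatives 1.65e-06 to 0.084). The venular call was lost in 12 of the 20 fits that left out a library, namely those without any 1 glomerular, venular or whole kidney library (highest FDR 0.171), and its log2 fold change stayed between -4.95 and -4.70. It was also lost with the library number as a block (FDR 0.0931), with no filter (FDR 0.111) and in the newer form of the quasi-likelihood test (FDR 0.391), with a range over 6 alternatives of 4.37e-07 to 0.391. As a marker against the other 3 compartments, Unc5b passed in arterioles (3.80 ± 0.76, FDR 0.000568) and in glomeruli (3.34 ± 0.76, FDR 0.00538), and both calls held in all 16 fits with a microdissected library left out.

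Of the 15 netrin and Unc5 partners listed, 12 could be tested, and 1 was called by edgeR, Neo1 in arterioles. There edgeR called 5.78% of all genes higher, and DESeq2 called 1 of the list higher and 2 lower. In glomeruli, peritubular capillaries and venules 0 were called, with 3, 3 and 0 at an unadjusted p under 0.05 and 1, 1 and 0 called by DESeq2. Neo1, which encodes neogenin, a receptor for netrins and repulsive guidance molecules, was at 559, 637, 49.9 and 46.8 CPM in arterioles and 23.6, 21.9, 20.6 and 24.6 CPM in whole kidney. All 4 arteriolar libraries lay above whole kidney, but libraries 93 and 96 stood far above the other two, and the log2 fold change was 3.83 ± 0.92 (FDR 0.00496). Dcc, the other classical netrin receptor, had 0 counts in all 20 libraries, which allows up to 0.0181 CPM over their 166130489 counts (3 counts, counting error only).

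The Slits, secreted ligands of Robo receptors, were present in some libraries of nearly every group and absent from others. Slit2 was at 83.6, 58.0, 0.225 and 0 CPM in arterioles, 3.21, 0.221, 8.57 and 10.9 CPM in glomeruli, 35.5, 24.3, 0.466 and 63.6 CPM in peritubular capillaries, 0.448, 12.6, 24.8 and 55.5 CPM in venules and 19.9, 19.0, 27.7 and 23.2 CPM in whole kidney. Only in glomeruli did all 4 libraries fall on a single side of whole kidney, below it, with a log2 fold change of -1.97 ± 1.59 (FDR 0.709). Slit3 was at 0.426, 64.9, 1.24 and 179 CPM in arterioles, 31.1, 0.111, 0.156 and 0.331 CPM in glomeruli, 25.4, 0.147, 22.7 and 127 CPM in peritubular capillaries, 2.69, 8.51, 0.185 and 0.134 CPM in venules and 0.608, 1.61, 0.959 and 1.89 CPM in whole kidney. The log2 fold change of Slit3 was 5.58 ± 2.03 in arterioles (FDR 0.0617) and 5.10 ± 1.98 in peritubular capillaries (FDR 0.294), with libraries on both sides of whole kidney in each. Neither Slit was called by edgeR in any comparison, and DESeq2 called 1 Slit higher in arterioles and 1 in peritubular capillaries.

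Among the Robo receptors, Robo2, which podocytes use for signals to the slit diaphragm, was highest in glomeruli on average and nearly absent from arterioles. Glomerular libraries held 84.3, 38.8, 65.9 and 176 CPM, arteriolar libraries 0.426, 0.322, 0.450 and 1.07 CPM and whole kidney 9.21, 10.5, 10.3 and 8.12 CPM. Peritubular capillaries were at 27.6, 29.6, 4.66 and 55.0 CPM and venules at 1.57, 56.0, 10.6 and 2.68 CPM. Arteriolar libraries lay below every other library, and glomerular libraries lay above whole kidney but overlapped peritubular capillaries and venules. Robo2 was lower in arterioles, with log2 differences of -7.29 ± 1.76 from glomeruli (FDR 0.0146) and -5.65 ± 1.64 from peritubular capillaries (FDR 0.0204). The first was lost without library 100 of the glomeruli (FDR 0.0862), and the second in the newer test form (FDR 0.0623) and with only the libraries compared (FDR 0.118, range over 7 alternatives 1.23e-05 to 0.118). Against whole kidney the arteriolar difference was -4.04 ± 1.35 (FDR 0.0457), a call lost without library 93, 96 or 98 of the arterioles, library 93, 98 or 100 of the glomeruli or any 1 whole kidney library (highest FDR 0.0859). That call was also lost with RLE scaling (FDR 0.0534), the library number as a block (FDR 0.0531), no filter (FDR 0.0986), a filter blind to the groups (FDR 0.0564) and the newer test form (FDR 0.177), with a range over 7 alternatives of 0.00108 to 0.177. As a glomerular marker it passed with 3.76 ± 0.99 (FDR 0.0199) and was lost without library 93 or 100 of the glomeruli (highest FDR 0.173).

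Robo4, the endothelial Robo receptor, was at 38.5, 67.9, 69.5 and 77.8 CPM in venules, 81.8, 38.3, 37.2 and 27.5 CPM in glomeruli and 11.4, 13.8, 13.0 and 12.4 CPM in whole kidney. Peritubular capillaries held 98.3, 1.18, 42.2 and 0.782 CPM and arterioles 1.92, 0.644, 35.5 and 0.535 CPM. Venules and glomeruli lay above whole kidney in all 4 libraries, whereas 3 of 4 arteriolar libraries lay below it. The log2 fold changes were 2.32 ± 1.34 in venules (FDR 0.687), 1.87 ± 1.31 in glomeruli (FDR 0.621) and -0.39 ± 1.28 in arterioles (FDR 0.859). Robo1, a widely expressed Robo receptor, was at 35.0, 33.0, 12.8 and 8.16 CPM in glomeruli, at most 0.644 CPM in any other microdissected library and 0 in all 4 venular libraries. It was higher in glomeruli than in the other compartments by 7.96 ± 1.63 (FDR 0.00222) and was no marker, since 1 library was under 10 CPM. Robo1 too passed the low-count filter of that fit only through glomerular libraries, so its FDR follows that selection.

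All 11 listed Slit and Robo partners could be tested. Dag1, which encodes dystroglycan, a matrix receptor that also binds Slits, was at 617, 1395, 359 and 364 CPM in arterioles, 822, 511, 596 and 584 CPM in glomeruli and 110.4, 93.9, 111 and 133 CPM in whole kidney. It was higher in both, by 2.61 ± 0.48 (FDR 0.000233) and 2.49 ± 0.47 (FDR 0.000989) on the log2 scale. Srgap1, a GTPase-activating protein that acts behind Robo receptors, was at 290.4, 285, 313 and 235 CPM in glomeruli against 8.91, 8.64, 11.2 and 7.75 CPM in whole kidney (4.94 ± 1.33, FDR 0.0296). In arterioles Enah, an actin regulator, was higher (2.98 ± 0.61, FDR 0.000917) and Usp33, a deubiquitinase that binds Robo1, was lower (-5.76 ± 1.77, FDR 0.0316). In peritubular capillaries and venules 0 of the 11 were called by edgeR or DESeq2, with 1 and 0 at an unadjusted p under 0.05.

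Efnb1, the B-class ephrin known from the podocyte slit diaphragm, was highest in glomeruli. Its level was 348, 273, 353 and 570.2 CPM there, 59.2, 64.7, 61.1 and 72.3 CPM in venules and 28.1, 28.3, 24.1 and 22.1 CPM in whole kidney. Arterioles held 2.13, 1.45, 62.5 and 5.89 CPM and peritubular capillaries 96.2, 46.0, 35.6 and 1.56 CPM. Glomerular libraries lay above all others, venular libraries lay above whole kidney and were even, and in arterioles library 98 stood far above the other 3. Against whole kidney the log2 fold change was 3.91 ± 0.96 in glomeruli (FDR 0.0133) and 1.32 ± 0.87 in venules (FDR 0.814). The glomerular call was lost without library 100 of the glomeruli or any 1 whole kidney library (highest FDR 0.0663), with a log2 fold change between 3.65 and 3.98. Efnb1 was higher in glomeruli than in arterioles by 4.42 ± 1.05 (FDR 0.0127, but 0.0598 without library 100 of the glomeruli) and than in the mean of the other compartments by 3.37 ± 0.67 (FDR 0.00166), and the latter call held in all 16 fits with a microdissected library left out.

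Efnb2, the arterial ephrin, was at 30.5, 293, 40.9 and 107 CPM in arterioles, 46.2, 97.2, 23.5 and 66.3 CPM in glomeruli and 4.46, 5.18, 4.80 and 6.23 CPM in whole kidney. Peritubular capillaries held 39.3, 6.93, 0.350 and 0.587 CPM and venules 0.112, 24.4, 0.185 and 0.134 CPM. Both arterioles and glomeruli lay above whole kidney, and 3 of 4 venular libraries held 1 count each. The log2 fold change was 4.51 ± 1.53 in arterioles (FDR 0.0489) and 3.49 ± 1.46 in glomeruli (FDR 0.212). The arteriolar call was lost in 10 of 20 fits with a library left out, those without library 96 or 100 of the arterioles or any 1 glomerular or whole kidney library (highest FDR 0.132, log2 fold change 3.51 to 4.79), and with the library number as a block (FDR 0.0684, range over 7 alternatives 0.000778 to 0.0684). Between arterioles and venules the difference was 4.23 ± 1.62 (FDR 0.113).

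Ephb4, the receptor of Efnb2 and classical label of veins, was at 0.336, 0.243, 32.2 and 45.9 CPM in venules and 0.213, 155, 0.112 and 8.92 CPM in arterioles. Glomeruli held 4.31, 2.54, 12.2 and 0.882 CPM, peritubular capillaries 3.60, 25.5, 0.233 and 10.9 CPM and whole kidney 9.72, 6.22, 4.25 and 5.10 CPM. High and low libraries occurred in every compartment, the arteriole to venule difference was 1.05 ± 1.88 on the log2 scale (FDR 0.809), and no arterial or venous side of Ephb4 was detectable in these libraries.

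Epha7 and Epha4, A-class Eph receptors, were high in some but not all arteriolar libraries. Epha7 was at 221, 204, 74.6 and 0.535 CPM in arterioles, 54.7, 34.8, 17.2 and 8.49 CPM in glomeruli, 0.249, 0.443, 0.117 and 0 CPM in peritubular capillaries, 0.112, 42.4, 0.370 and 69.1 CPM in venules and 5.57, 1.38, 3.08 and 3.31 CPM in whole kidney. It was near absent from peritubular capillaries, where all 4 libraries lay below whole kidney, and all glomerular libraries lay above whole kidney. The log2 fold change against whole kidney was 5.22 ± 1.57 in arterioles (FDR 0.0276), a call lost without library 93 or 96 of the arterioles or any 1 whole kidney library (highest FDR 0.0854). Epha7 was higher than in peritubular capillaries by 9.14 ± 2.02 in arterioles (FDR 0.00216) and by 7.03 ± 1.86 in glomeruli (FDR 0.0184). The glomerular call was lost in the newer test form (FDR 0.0653, range over 7 alternatives 4.95e-05 to 0.0653) and without glomerular library 93 or peritubular library 93, 98 or 100 (highest FDR 0.0679). Epha4 was at 0.426, 291, 53.8 and 333 CPM in arterioles, 1.30, 9.28, 0.623 and 22.8 CPM in glomeruli, 28.2, 26.1, 0.350 and 76.7 CPM in peritubular capillaries, 0.112, 0.972, 0 and 0.134 CPM in venules and 11.9, 10.2, 10.2 and 12.2 CPM in whole kidney. Its venular libraries lay below every whole kidney library, and it was higher in arterioles than in venules by 9.01 ± 1.94 (FDR 0.00376). Against whole kidney Epha4 gave 3.92 ± 1.42 in arterioles (FDR 0.0609) and -5.09 ± 1.54 in venules (FDR 0.238).

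Ephb1, a B-class Eph receptor, was at 58.6, 46.6, 61.7 and 82.7 CPM in glomeruli and 3.14, 2.88, 2.88 and 3.31 CPM in whole kidney. Arterioles held 0.426, 0.483, 0.337 and 0.178 CPM, peritubular capillaries 0.249, 5.61, 0.466 and 0.391 CPM and venules 0.224, 0.121, 25.9 and 0.268 CPM. The glomerular libraries lay above all others, with 1 high library each in peritubular capillaries and venules. Ephb1 was higher in glomeruli than in the other compartments by 5.27 ± 1.31 (FDR 0.0132), a call lost without library 100 of the glomeruli (FDR 0.0515), and its log2 fold change against whole kidney was 4.35 ± 1.76 (FDR 0.19). Without its glomerular libraries Ephb1 would not have passed the low-count filter of the compartment fit. Ephb3, another B-class receptor, was higher in arterioles than in peritubular capillaries by 8.75 ± 2.95 (FDR 0.0479), although arteriolar libraries 93 and 98 were at 0.213 and 0.225 CPM. That call was lost with the block (FDR 0.134, range over 6 alternatives 0.000351 to 0.134) and in 9 of 16 fits with a library left out, those without arteriolar library 96 or 100, glomerular library 93 or 98, any peritubular library or venular library 93 (highest FDR 0.131). Among 15 tested Eph and ephrin partners, the phosphatase gene Ptpn11 was higher in arterioles (3.24 ± 0.91, FDR 0.0187). The exchange factor genes Ngef and Vav2 were lower there (-6.37 ± 1.75, FDR 0.0157, and -5.81 ± 1.74, FDR 0.0269). In arterioles 5.78% of all genes were higher and 5.5% lower, and DESeq2 called 4 of the 15 higher and 3 lower. In glomeruli, peritubular capillaries and venules edgeR called 0, with 1, 1 and 0 at an unadjusted p under 0.05 in its test. DESeq2 called 1, 1 and 0 there.

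Differences among the 4 compartments were also tested in a fit of the 16 microdissected libraries, which held 49 members and 12179 genes. Any difference among the 4 was called for 13 members (26.5%), namely Efnb1, Epha4, Epha7, Ephb1, Plxna3, Robo1, Robo2, Sema3e, Sema3g, Sema5a, Sema5b, Sema6c and Unc5b, and for 11.4% of all genes. Of these, Ephb1, Plxna3, Robo1, Sema3e, Sema5b and Sema6c passed the low-count filter only through glomerular libraries, where they were high. Their calls in this fit therefore follow that selection. Markers of glomeruli, higher than the mean of the other 3 compartments with at least 10 CPM in each library, were 7 members (14.3%: Sema3g, Sema5a, Sema6c, Efnb1, Ephb1, Robo2 and Unc5b), against 1.48% of all genes. Markers of arterioles were 2 (4.08%: Sema3g and Unc5b), against 4.76%. No member was a marker of peritubular capillaries or venules, where 3.24% and 0.23% of all genes were, while 9 (18.4%) and 7 (14.3%) members had an unadjusted p under 0.05 in edgeR's test, against 22% and 12.3% of all genes. DESeq2 named 1 peritubular marker (Sema3c) and 0 venular ones among the members, and 4.14% and 0.616% of all genes. Sema3g and Unc5b passed in both arterioles and glomeruli, because the rule compares each compartment with the mean of the other 3 and not with each of them. That mean is taken on the log2 scale, so a compartment near 0 lowers it and enlarges the difference. Unc5b averaged 0.402 CPM in venules, and Sema6c 0.0446 CPM in arterioles and 0.0335 CPM in venules. In pairs of compartments, 2 members (4.08%) differed between arterioles and glomeruli (2.18% of all genes), 5 (10.2%) between arterioles and peritubular capillaries (11.2%), 3 (6.12%) between arterioles and venules (4.37%), 2 (4.08%) between glomeruli and peritubular capillaries (4.47%), 2 (4.08%) between glomeruli and venules (1.22%) and 1 (2.04%, Unc5b) between peritubular capillaries and venules (0.386%).

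Ligands and receptors were set side by side within libraries, with no test, for a list of pairs. Whether the products of each pair bind directly was not tested. Sema3g and Nrp2 both exceeded 10 CPM in all 4 arteriolar and all 4 glomerular libraries, in 3 of 4 peritubular and venular libraries and in all whole kidney libraries. Sema3f and Nrp2 did so in 3 arteriolar and 3 glomerular libraries, 1 venular library and 0 of the others. Sema3e and Plxnd1 did so in 2 glomerular libraries only, and Sema3e did not exceed 2.60 CPM outside the glomeruli. Ntn4 and Unc5b both exceeded 10 CPM in 4 glomerular, 2 arteriolar, 2 peritubular and 0 venular libraries, whereas Ntn1 and Unc5b did so in 1 library, an arteriolar one. Unc5b and Robo4, which can bind each other, both exceeded 10 CPM in all 4 glomerular, 3 whole kidney, 1 arteriolar, 1 peritubular and 0 venular libraries. In venules the mean of Robo4 was 63.4 ± 17.2 CPM and that of Unc5b 0.402 ± 0.0906 CPM (SD, n = 4), and in arterioles 9.65 ± 17.2 and 116 ± 79.1 CPM. Efnb2 and Ephb4 both exceeded 10 CPM in only 1 arteriolar and 1 glomerular library, while Efnb2 and Ephb1 did so in all 4 glomerular libraries and in 0 others. Slit2 and Robo2 did so in 3 peritubular, 2 venular, 2 whole kidney, 1 glomerular and 0 arteriolar libraries. Presence in the same dissected structure does not place a pair on neighbouring cells.

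**Figure D5:**
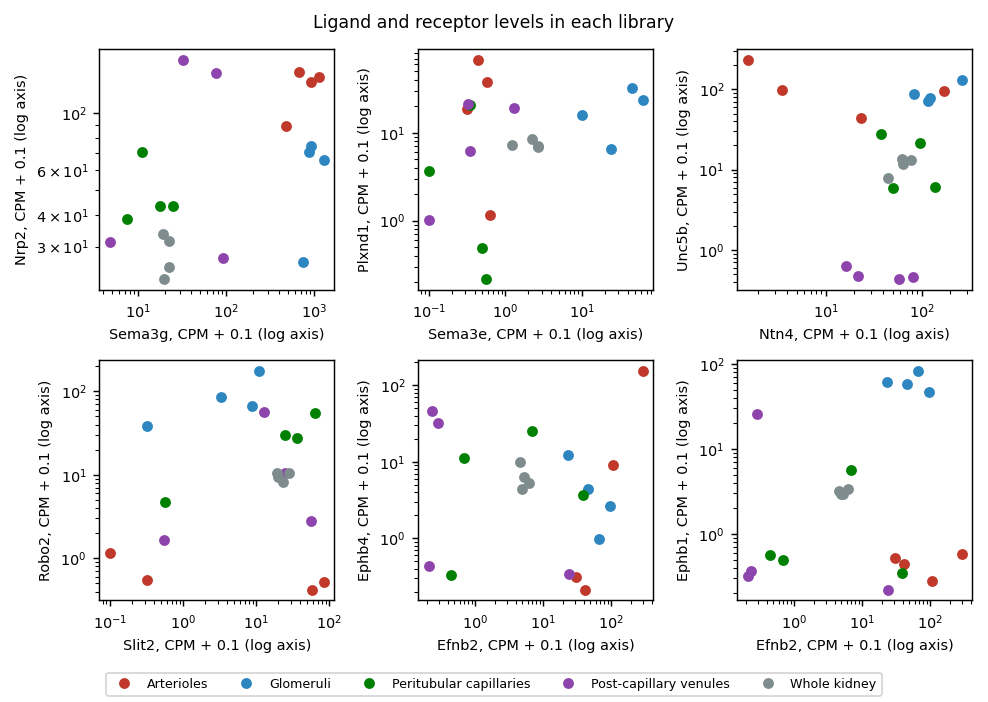
Level of a ligand against that of a listed receptor (CPM + 0.1, both axes log), 1 point for each of the 20 libraries, coloured by group, for Sema3g and Nrp2, Sema3e and Plxnd1, Ntn4 and Unc5b, Slit2 and Robo2, Efnb2 and Ephb4, and Efnb2 and Ephb1. Venular libraries sit at 0.336 to 0.536 CPM of Unc5b whatever their Ntn4, and Efnb2 and Ephb4 both exceed 10 CPM in 1 arteriolar and 1 glomerular library.

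The remaining members are given by counts. Of all 67, 15 were too low to be tested in the fit with whole kidney (Sema3a, Sema4f, Plxnb3, Plxnc1, Ntng2, Unc5d, Slit1, Epha5, Epha6, Epha8, Epha10, Ephb6, Efna2, Efna3 and Efnb3), and Robo3, Ephb2 and Efna4 in addition could not be tested among the compartments. Epha8 had 0 counts in all 20 libraries, and Sema4f, Unc5d, Epha10, Efna3 and Efnb3 had 0 in all 16 microdissected libraries, which allows up to 0.0232 CPM over their 129183714 counts, and were counted in whole kidney alone. Sema3a, a widely studied repellent, had 122 counts in all, 96 of them in 1 venular library. Sema4a, a semaphorin known from immune cells, had its highest group mean in peritubular capillaries (101 ± 99.5 CPM, SD) and its lowest in arterioles (23.3 ± 26.7 CPM). Sema4c, a ligand of Plxnb2, was at 62.0, 97.5, 72.4 and 63.3 CPM in glomeruli, 30.9, 24.1, 21.3 and 94.7 CPM in venules and between 8.30 and 10.2 CPM in whole kidney, with log2 fold changes of 2.97 ± 1.29 (FDR 0.238) in glomeruli and 2.81 ± 1.28 (FDR 0.121) in arterioles. Reads from genes that overlap an annotated gene on the other strand may be mixed with it, since the strand setting of the counting was not given in the sources used here, and of the 10 members called against whole kidney or as markers this applied to Sema5a, Epha7, Ephb1 and Robo2.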

How the data were processed

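RNA from laser-microdissected compartments and whole kidney had been sequenced from its 3′ ends. Per the study's methods, the authors used bbduk for trimming, STAR 2.7 for alignment to GRCm38.p6 and htseq-count 0.13 for counting over Ensembl genes. The submitters' processing notes also list FastQC 0.11.8, MultiQC 1.7, SAMtools 1.9, featureCounts and GRCm39, without their roles. The deposited values are raw counts per gene. No source used here states the strand setting or whether molecular identifiers were counted. Of 168 sample columns, 20 belong to the labelled samples, and 148 were not used. The table's 3 descriptive lines, which name no gene, were dropped. The columns carry library numbers that the labels do not tie to the replicate numbers.

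Counts were scaled by TMM and tested with edgeR 4.0.16 in R 4.3.3 (glmQLFit in its version 3 form, glmQLFTest) after filterByExpr, with 1 fit of all 20 libraries for the comparisons with whole kidney (13813 genes) and 1 of the 16 microdissected libraries for those among compartments (12179 genes). FDR is the Benjamini-Hochberg value over all genes tested. SE is the log2 fold change divided by the square root of F. Calls needed FDR under 0.05 and a log2 fold change beyond 1. Markers needed FDR under 0.05, a positive change from the mean of the other 3 compartments on the log2 scale, and 10 CPM in all 4 libraries. CPM given in the text are those of the 20-library fit, and they are not compared between genes. The 10 CPM limit of the marker rule was applied to the CPM of the 16-library fit, whose scaling differs. The code of the fits was run on simulated counts with known changes and the same dispersion for every gene and group. The real groups differed in spread, so that run does not show how the calls behave in these libraries. Alternatives were RLE scaling, no filter, a filter on mean CPM blind to groups, edgeR's version 4 form, the library number as a block, fits of only the libraries compared, a 20-library fit for the markers, DESeq2 1.42.0, and leaving out each library.

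Members named with all values were those called against whole kidney or as markers, the member of each family with the highest mean, and 11 vascular genes given whatever their values. Sema3f, Sema4a, Sema4c, Sema5b, Plxna3, Robo1 and Ephb3 were named after their values were seen. The members and lists were chosen with earlier results of these data known. The p-values rest on the spread between libraries within groups, estimated jointly over all groups of a fit and not from the compared groups alone. Libraries held 4639090 to 12283098 counts. Gene positions are those of GENCODE M21, which held 67 of 67 members.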

Additional observations from a re-analysis of the deposited data

Results flagged for a closer look

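In groups of 4 libraries, a library was singled out when its gap to the nearest of the others, as a share of the whole range, was above Dixon's 95% critical value, among groups with a library over 10 counts. Of 100 groups of named members, 15 met this, each with 1 library above the other 3, and none of the 15 lay in whole kidney. The critical value is set for normally distributed values, whereas these CPM were untransformed and skewed. How many flags chance alone would give is therefore not known. In arterioles these were Efnb1 in library 98 (62.5 CPM, the others 1.45 to 5.89), Robo4 in library 98 (35.5 CPM, the others 0.535 to 1.92), Ntn4 in library 100 (173 CPM, the others 1.45 to 23.2) and Ephb4 in library 96 (155 CPM, the others 0.112 to 8.92). In glomeruli they were Sema3c in library 100 (26.8 CPM, the others 0.601 to 3.98), Slit3 in library 93 (31.1 CPM, the others 0.111 to 0.331) and Ntn1 in library 93 (1.30 CPM, the others up to 0.221). Peritubular library 93 held 4 of them, namely Sema6c (27.0 CPM, the others up to 0.233), Efnb2 (39.3 CPM, the others 0.350 to 6.93), Ntn1 (14.0 CPM, the others 0.196 to 0.350) and Plxnd1 (20.4 CPM, the others 0.117 to 3.54), and library 96 of that compartment held Ephb1 (5.61 CPM, the others 0.249 to 0.466). In venules they were Ephb1 in library 98 (25.9 CPM, the others 0.121 to 0.268), Robo2 in library 96 (56.0 CPM, the others 1.57 to 10.6) and Efnb2 in library 96 (24.4 CPM, the others 0.112 to 0.185).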

How the results depend on the processing

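All directions of the 10 called genes held under all alternatives run. Of their 19 calls, all 19 held with DESeq2, 18 with RLE scaling, 17 of 18 with a filter blind to groups, 17 with the version 4 test, 15 with no filter and 16 with the library number as a block. All 10 held with only the libraries compared and all 9 in the 20-library fit. Counts of calls moved more, and what moved them was not tested. Calls over all genes moved as well. With only the libraries compared, 11.6% of all genes were higher in glomeruli, against 1.59% in the report. Shares over all genes are not given for most alternatives. Counts of members under the alternatives are therefore no result about the members alone. With the version 4 test, calls became 11 higher (4 in the report) and 1 lower (2) in arterioles, 12 higher in glomeruli (3), 0 lower in venules (1), 4 arteriolar (2) and 1 peritubular marker (0), and 8, 10, 5, 7, 5 and 0 between arterioles and glomeruli (2), arterioles and peritubular capillaries (5), arterioles and venules (3), glomeruli and peritubular capillaries (2), glomeruli and venules (2) and peritubular capillaries and venules (1). DESeq2 gave 10 higher and 5 lower in arterioles, 9 higher and 1 lower in glomeruli, 1 higher and 2 lower in peritubular capillaries, 3 lower in venules, 4 arteriolar and 1 peritubular marker, and 12, 14, 13, 13, 7 and 4 in the same pairs. Fits of only the libraries compared, with fewer libraries in the estimate of the spread, gave 7 higher and 9 lower in arterioles, 19 higher and 4 lower in glomeruli, 6 lower in peritubular capillaries, 1 higher and 3 lower in venules, 4 between arterioles and glomeruli, 1 between arterioles and peritubular capillaries, 9 between glomeruli and peritubular capillaries, 9 between glomeruli and venules and 0 between peritubular capillaries and venules. The filter blind to groups gave 7 higher and 1 lower in arterioles, 0 lower in venules, where Unc5b did not pass it, 21 differing among the compartments (13), and 5, 4 and 4 for arterioles and glomeruli, glomeruli and peritubular capillaries, and peritubular capillaries and venules. With no filter there were 0 lower in arterioles, 0 lower in venules, 4 between glomeruli and peritubular capillaries and 2 between peritubular capillaries and venules. RLE scaling gave 1 lower in arterioles and 0 between peritubular capillaries and venules, and moved the median of all genes by 0.17 in arterioles against whole kidney. The 20-library fit gave 1 peritubular marker.

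Whether the library numbers pair the samples is not settled. The study cut the compartments mouse by mouse, but no source used here says that a number marks a mouse. Over 40 pairs of the same number in different groups, deviations from the group means correlated at 0.0075 on average (range -0.046 to 0.063), and 0 pairs were over 0.1. Pairs of other numbers correlated at -0.0025 on average. Choosing among 4 numbers, 14 of 20 libraries correlated best with their own number, so a weak pairing cannot be set aside. With the number as a block, Efnb2 (FDR 0.0684) and Robo2 (FDR 0.0531) in arterioles and Unc5b in venules (FDR 0.0931) were no longer called against whole kidney, the venular count was 0, and 3 members differed between arterioles and peritubular capillaries and 0 between peritubular capillaries and venules.

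With 1 library left out, counts ranged from 1 to 5 higher and 1 to 3 lower in arterioles, 1 to 4 higher in glomeruli, 0 to 1 lower in venules, 9 to 15 differing among compartments, 2 to 3 arteriolar and 6 to 8 glomerular markers, and, between pairs, 0 to 3 (arterioles and glomeruli), 3 to 6 (arterioles and peritubular capillaries), 3 to 4 (arterioles and venules), 1 to 4 (glomeruli and peritubular capillaries), 2 to 3 (glomeruli and venules) and 0 to 2 (peritubular capillaries and venules), while the others stayed at 0. Without any 1 whole kidney library, arterioles kept 1 higher call and glomeruli 1. The arteriolar count was 2 without library 96 of the arterioles, and the glomerular count 1 without library 100 of the glomeruli. Lower calls were 1 in arterioles without arteriolar library 93 or 96, glomerular library 93, 98 or 100 or any whole kidney library, and 0 in venules without any glomerular, venular or whole kidney library. Without glomerular library 100, 0 members differed between arterioles and glomeruli. Between arterioles and peritubular capillaries 3 did without glomerular library 93 or 98 or peritubular library 93, 96 or 98. Between glomeruli and peritubular capillaries 1 did without glomerular library 93 or peritubular library 93 or 98, and 4 without arteriolar library 93, 96 or 100. Between peritubular capillaries and venules 0 did without any glomerular or venular library or peritubular library 96 or 98, and 2 without arteriolar library 93 or 100. Depth limits what a count of 0 shows, and the upper limits given for such counts cover counting error only.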
